A study of Homo sapiens with 6 samples.

Results

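A set of 9 genes of the NRF2 antioxidant system was examined in Hep3B cells with and without a guide against RFX6. Its members, picked by name, were NFE2L2, KEAP1, NQO1, GCLC, GCLM, SRXN1, TXNRD1, HMOX1 and TXN, and all 9 were found among the 16721 rows of the count table and passed the filter on low counts. Of the 9, HMOX1 was the one that differed between the groups, at 2.42 times its control level in RFX6-knockout cells. NFE2L2, which encodes NRF2 itself, and the other genes did not pass the test.

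Hep3B cells are a line from a human liver cancer. The control group (sgControl, genotype WT) had 3 libraries and the knockout group (sgRFX6, genotype RFX6 knockout) had 3 libraries, and the labels name no drug or time course. The study's methods describe guides delivered with Cas9 by lentivirus, puromycin selection and picking of clones grown from single cells. All 3 knockout libraries carry sg3 in their column names, one of the guides the methods list, so the comparison rests on a single guide. The labels do not say whether the 3 libraries of a group are separate clones or cultures, so the p-values below measure the spread between these libraries, which may be technical.

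NRF2 is a transcription factor that KEAP1 binds in the cytoplasm and hands to a ubiquitin ligase for degradation. When oxidants or electrophiles modify KEAP1, NRF2 accumulates, pairs with a small Maf protein and binds antioxidant response elements near its target genes. The targets rebuild glutathione (GCLC, GCLM), supply thioredoxin and its reductase (TXN, TXNRD1), repair peroxiredoxins (SRXN1), reduce quinones (NQO1) and break down heme (HMOX1). In liver cells this system handles reactive metabolites, and in some liver tumours it is switched on by mutation.

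The antioxidant response element has the core TGACNNNGC, where N is any base, and its matches are shown because they are the letters by which the members are usually linked to NRF2. RefSeq promoter windows of GRCh38.p14, from 250 bases before a gene's start to 50 after it, were on hand for 8 of the members (11 windows). The core was found on either strand in 4 windows, those of KEAP1 (window 2 only), GCLM and TXNRD1, and in 13.3% of all 35116 windows. The matches are printed with 20 bases on either side, 5′ to 3′ on the gene's strand, with the core in capitals. A core on the opposite strand appears as its reverse complement.
KEAP1 (chr19:10502774-10502845, minus strand): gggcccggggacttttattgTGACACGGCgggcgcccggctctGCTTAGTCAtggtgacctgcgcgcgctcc
GCLM (chr1:93909436-93909484, minus strand): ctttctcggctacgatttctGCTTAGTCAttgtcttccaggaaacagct
TXNRD1, upstream start (chr12:104215660-104215799, plus strand): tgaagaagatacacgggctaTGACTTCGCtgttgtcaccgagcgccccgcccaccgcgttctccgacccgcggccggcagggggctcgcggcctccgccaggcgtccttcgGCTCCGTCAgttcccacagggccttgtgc
TXNRD1, downstream start (chr12:104286910-104286958, plus strand): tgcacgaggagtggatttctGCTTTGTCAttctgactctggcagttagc
The KEAP1 and GCLM windows shared one core, GCTTAGTCA as printed. The half-site of RFX factors, GTTGCC, was found on either strand in 1 of the 11 windows, that of the downstream TXNRD1 start, and in 12.2% of all windows. A match is a description of letters, not of binding, and the windows of NFE2L2, NQO1, GCLC, SRXN1 and TXN held no core. Elements outside these short windows were not searched for, so a window without a core does not mean a gene without one. HMOX1 has no entry in the table of windows.

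The libraries held between 16730386 and 25070793 counts. RFX6 itself was at 5.64, 5.83 and 7.34 CPM (counts scaled to a common library size with the TMM factors of edgeR) in sgControl and at 3.43, 3.71 and 3.50 CPM in sgRFX6, which did not pass the test (log2 fold change -0.82, SE 0.26, adjusted p = 0.142). This and all adjusted p-values below come from the quasi-likelihood fit of edgeR, unless another tool is named. Across genes, which are not independent replicates, the deviation of a library from the mean of the 6 tracked transcript GC content, with Spearman's rho from -0.759 in sgRFX6 library 3 to 0.55 in sgRFX6 library 2, and the values with this trend removed are given below as the GC-corrected ones. The levels of the hepatocyte markers were not compared with another liver line. ALB was at 12.9 to 32.1 CPM over the 6 libraries, AFP at 1.58 to 2.31 CPM in sgControl and 9.98 to 17.2 CPM in sgRFX6, and the 9 markers summed to 114 to 147 CPM in sgControl and 74.6 to 116 CPM in sgRFX6. The immune list summed to 74.0 to 160 CPM and 65.1 to 103 CPM, nearly all of it CD68, with PTPRC at or under 0.999 CPM and CD3E at 3 counts or fewer in every library. The endothelial list summed to 11.6 to 13.5 CPM and 13.3 to 19.6 CPM and the fibroblast list to 8.12 to 8.58 CPM and 1.68 to 2.45 CPM. Nearly all of the endothelial sum was PECAM1, at 11.4 to 13.0 CPM in sgControl and 13.2 to 19.3 CPM in sgRFX6. Its log2 fold change was 0.46 (adjusted p = 0.401). KDR, another endothelial marker, was at 3 counts or fewer throughout, and VWF was at 0.0454 to 0.561 CPM. Of the 9 hepatocyte markers edgeR called 2 higher (AFP and AHSG) and 1 lower (FGB). Of the 3 tested fibroblast markers it called COL1A1 and COL1A2 lower. Over all tested genes 1.92% were called higher and 1.81% lower. APOB was not called (adjusted p = 0.116), at 60.6 to 76.4 CPM in sgControl and 15.9 to 46.1 CPM in sgRFX6. The part of these shifts in the results below was not tested.

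HMOX1, the inducible heme oxygenase that opens the heme ring and releases iron, carbon monoxide and biliverdin, rose in sgRFX6. It lies on chromosome 22 from 35380361 to 35394214 of GRCh38 on the plus strand. The 3 sgControl libraries held 215, 138 and 182 CPM of HMOX1, from 4458, 3396 and 4216 counts. In the 3 sgRFX6 libraries it stood at 455, 438 and 403 CPM, from 9156, 6966 and 8865 counts. Every sgRFX6 library was well above every sgControl library, so the groups did not overlap. The means were 178 ± 38.8 CPM and 432 ± 26.6 CPM (SD, n = 3 each), a log2 fold change of 1.28 (SE 0.20, 95% interval 0.83 to 1.73, adjusted p = 0.00948).
HMOX1 was 1 of 9 members called, where 3.74% of the 12839 tested genes were called, with 1.92% of all tested genes higher. A two-sided exact permutation test of the 6 values gave p = 0.1, the smallest that 3 libraries against 3 allow. Over 16 alternatives its log2 fold change lay between 1.12 and 1.43. Its adjusted p lay between 2.54e-06 (DESeq2) and 0.0494 (edgeR without sgRFX6 library 1), so HMOX1 was called in 16 of 16. The GC-corrected log2 fold change was 1.30 (SE 0.22, adjusted p = 0.00870), in a fit that again called 1 of 9 members, beside 6.56% of its genes called higher and 5.46% lower. The 50 tested genes nearest to HMOX1 on the chromosome had a median log2 fold change of -0.09. In bulk RNA, more cells that express a gene and more RNA per cell cannot be told apart.

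**Figure D1:**
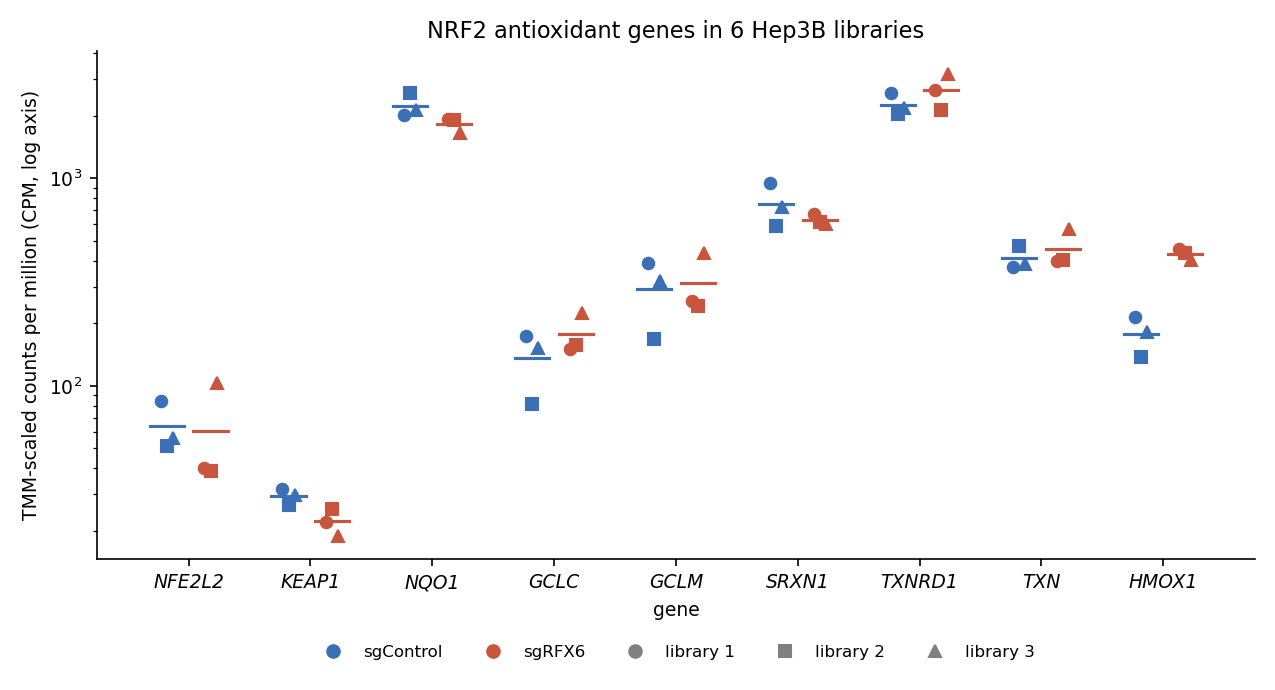
TMM-scaled CPM (log axis) of the 9 genes in each of the 6 libraries; points are libraries, their shape gives the library number, and short lines are group means (n = 3). For HMOX1 the sgRFX6 points (403 to 455 CPM) lie clear of the sgControl points (138 to 215 CPM), while for NFE2L2, GCLC, GCLM, TXN and TXNRD1 sgRFX6 library 3 lies above all other libraries. With the GC trend removed (not drawn) that library stayed highest for NFE2L2, GCLC and TXNRD1 but not for GCLM and TXN.

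NFE2L2, on chromosome 2 from 177227595 to 177392697 (minus strand), did not differ between the groups beyond their spread. It was measured at 84.7, 51.1 and 56.3 CPM in sgControl and at 40.4, 39.0 and 103 CPM in sgRFX6. Libraries 1 and 2 of sgRFX6 were below every sgControl library, and library 3 was above every one of them. The log2 fold change was -0.07 with a wide interval, -0.95 to 0.80 (adjusted p = 0.964). It was -0.68 without sgRFX6 library 3 (SE 0.23, adjusted p = 0.134). Limma-voom with quality weights gave that library the smallest weight (0.168) and made the call at -0.58 (adjusted p = 0.0307). This tool called 31.1% of all tested genes. The body of NFE2L2 overlaps AGPS on the opposite strand, and whether the counting used strand is not given, so their reads may be mixed. After GC correction sgRFX6 library 3 was still highest, at 93.6 CPM against 53.1 to 82.7 CPM in sgControl.
The gene for the repressor KEAP1, on chromosome 19 from 10486120 to 10503741 (minus strand), was at 31.9, 26.6 and 29.9 CPM in sgControl and at 22.2, 25.5 and 19.0 CPM in sgRFX6. The groups did not overlap, with sgControl library 2 and sgRFX6 library 2 the nearest pair. The difference did not pass the test (log2 fold change -0.41, SE 0.21, 95% interval -0.88 to 0.06, adjusted p = 0.406). KEAP1 passed in 1 of 16 alternatives, limma-voom with quality weights (-0.41, adjusted p = 0.0236), a tool that called 31.1% of all tested genes. With the GC trend removed the groups overlapped, at 24.2 to 34.1 CPM in sgControl and 20.5 to 25.0 CPM in sgRFX6. The fit with that correction gave a log2 fold change of -0.38 (SE 0.16, 95% interval -0.76 to -0.0095). It did not pass either (adjusted p = 0.171).

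NQO1, the quinone reductase often used as a readout of NRF2, was abundant and no higher in the knockout. On chromosome 16 from 69706996 to 69726951 (minus strand), it was at 2015, 2571 and 2144 CPM in sgControl and at 1931, 1912 and 1653 CPM in sgRFX6. All 3 sgRFX6 libraries were below the sgControl libraries, by a small margin from sgControl library 1. The log2 fold change was -0.29 (SE 0.19, 95% interval -0.72 to 0.14, adjusted p = 0.532), and no alternative called it. Thus 3 of the 9 members had groups that did not overlap, HMOX1 upward and KEAP1 and NQO1 downward, beside 23.1% of all tested genes. In GC-corrected CPM 1 of 9 remained, HMOX1, beside 34.7% of the genes with a GC value (17.6% of them higher, 17.1% lower).

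Glutamate-cysteine ligase makes the first and limiting step of glutathione synthesis, with GCLC as its catalytic and GCLM as its modifier subunit. GCLC (chromosome 6, 53497341 to 53616970, minus strand) was at 174, 82.1 and 152 CPM in sgControl and at 151, 158 and 225 CPM in sgRFX6. GCLM (chromosome 1, 93885205 to 93909456, minus strand) was at 390, 168 and 319 CPM in sgControl and at 256, 243 and 438 CPM in sgRFX6. Both genes were lowest in sgControl library 2 and highest in sgRFX6 library 3, and for both the groups overlapped.
Neither passed the test, with a log2 fold change of 0.39 for GCLC (95% interval -0.27 to 1.04, adjusted p = 0.600) and of 0.09 for GCLM (95% interval -0.67 to 0.86, adjusted p = 0.945). GCLM has the transcript lowest in GC among the members, at 37.3% (5.01 percent of tested genes with a GC value are at or below it). Once the GC trends were removed, its values ran from 211 to 334 CPM in sgControl and from 263 to 323 CPM in sgRFX6, and its standard error fell from 0.34 to 0.18 with a log2 fold change still near 0 (0.04, adjusted p = 0.911).
Per kilobase of exon, GCLM was above GCLC in every library, 2.66 to 2.91 times in sgControl and 1.997 to 2.54 times in sgRFX6. The 2 ranges did not overlap (two-sided exact permutation test, p = 0.1, and 0.4 after adjustment over the 4 ratios computed). In GC-corrected values they did, at 2.49 to 3.15 and 1.78 to 2.54 (exact permutation p = 0.2).

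The thioredoxin members also stayed within the spread of the libraries. Thioredoxin itself, TXN (chromosome 9, 110243811 to 110256640, minus strand), was at 376, 474 and 387 CPM in sgControl and at 398, 405 and 567 CPM in sgRFX6. Its log2 fold change was 0.15 (95% interval -0.31 to 0.60, adjusted p = 0.821), with the top value in sgRFX6 library 3. With the GC trend removed that library was at 452 CPM, inside the sgControl range of 347 to 518 CPM. The annotation holds 7 pseudogenes named after TXN, and reads could be shared with them, so its level is uncertain.
TXNRD1, the selenoenzyme that reduces thioredoxin with NADPH (chromosome 12, 104215779 to 104350305, plus strand), was at 2571, 2046 and 2183 CPM in sgControl and at 2659, 2134 and 3188 CPM in sgRFX6. The difference was 0.23 on the log2 scale (95% interval -0.26 to 0.72, adjusted p = 0.702). The 50 tested genes around TXNRD1 had a median of 0.25, and relative to them the difference was -0.0234. The gene EID3 lies within the bounds of TXNRD1 on the same strand, so reads could be shared.
SRXN1, sulfiredoxin, which repairs overoxidised peroxiredoxins (chromosome 20, 646615 to 653370, minus strand), was at 945, 587 and 725 CPM in sgControl. In sgRFX6 it was at 670, 616 and 604 CPM, all inside the sgControl range. The log2 fold change of -0.26 did not pass (95% interval -0.72 to 0.21, adjusted p = 0.638).

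**Figure D2:**
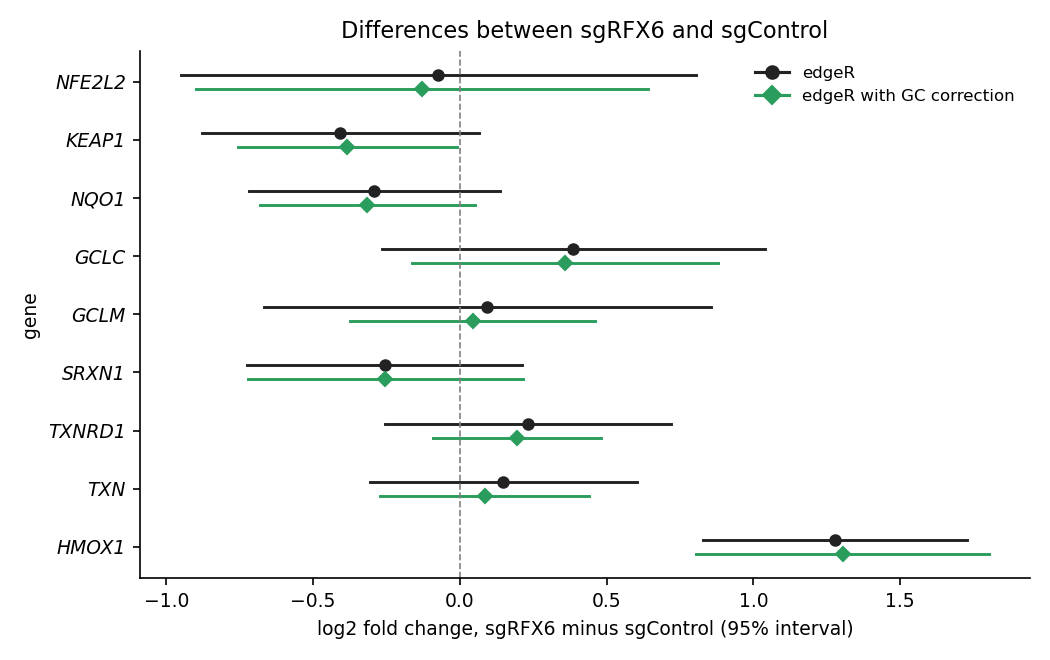
Log2 fold change (sgRFX6 minus sgControl) of the 9 genes with 95% intervals from edgeR's quasi-likelihood fit over 3 libraries a group, as counted (circles) and with each library's GC trend removed (diamonds). The interval of HMOX1 (0.83 to 1.73) lies above 0 in both fits, and as counted those of the other 8 genes include 0.

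Levels can be compared between genes per kilobase of exon. In sgControl the order was NQO1 (718 CPM per kilobase), TXN (474), TXNRD1 (449), SRXN1 (279), HMOX1 (97.8), GCLM (59.7), GCLC (21.4), NFE2L2 (14.1) and KEAP1 (9.34). NQO1, TXN and TXNRD1 were each above 99% of the tested genes, whereas KEAP1 was above 55.5% of them. Among neighbours in this order, the ranges of TXN and TXNRD1, of HMOX1 and GCLM, and of GCLC and NFE2L2 overlapped over the 3 sgControl libraries.
In sgRFX6 the order was NQO1 (586 CPM per kilobase), TXNRD1 (527), TXN (525), HMOX1 (237), SRXN1 (234), GCLM (63.7), GCLC (27.9), NFE2L2 (13.4) and KEAP1 (7.04). HMOX1 was below SRXN1 in all 3 sgControl libraries (75.5 to 118 against 217 to 350 CPM per kilobase), and in sgRFX6 their ranges overlapped (221 to 250 against 224 to 249). The ranges of NQO1, TXNRD1 and TXN overlapped there as well. The 9 genes summed to 6143 to 6804 CPM in sgControl and 5970 to 7199 CPM in sgRFX6.

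Heme enters the cell's iron pool through HMOX1, and 9 further genes of heme and iron handling were compared. Their list was written from general knowledge with earlier results of these data known, so it is not independent of them. No gene of the list was called by edgeR, 5 of 9 had an unadjusted p under 0.05 (15.6% of all tested genes did), and limma-voom with quality weights called 5 higher and 1 lower, beside 18.1% and 13% of all tested genes. Their median log2 fold change was 0.42, against 0.02 over all tested genes. FTH1, the ferritin heavy chain that stores iron, was at 4367, 4438 and 4977 CPM in sgControl and at 7223, 9287 and 5718 CPM in sgRFX6. For FTH1 the groups did not overlap, with a log2 fold change of 0.69 (SE 0.23, adjusted p = 0.175). FTH1 has many processed copies in the genome, so reads could be shared.
BLVRA, the biliverdin reductase that acts on the product of HMOX1, was at 16.3, 18.9 and 16.9 CPM in sgControl and at 28.4, 26.6 and 26.8 CPM in sgRFX6. Its log2 fold change was 0.65 (SE 0.20, adjusted p = 0.127), and the 50 tested genes around it on chromosome 7 had a median of 0.49. The heme transporter gene SLC48A1 (0.42), the iron exporter gene SLC40A1 (0.62) and the porphyrin transporter gene ABCB6 (-0.59), named after their values were seen, also had groups that did not overlap, with adjusted p-values of 0.258, 0.284 and 0.134. In all, 4 of the 9 were higher and 1 lower without overlap, beside 12% and 11.2% of all tested genes. With the GC trends removed FTH1, BLVRA, SLC48A1, SLC40A1 and ABCB6 passed (adjusted p from 0.0168 to 0.0439), in a fit that called 12% of the genes it tested.

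**Figure D3:**
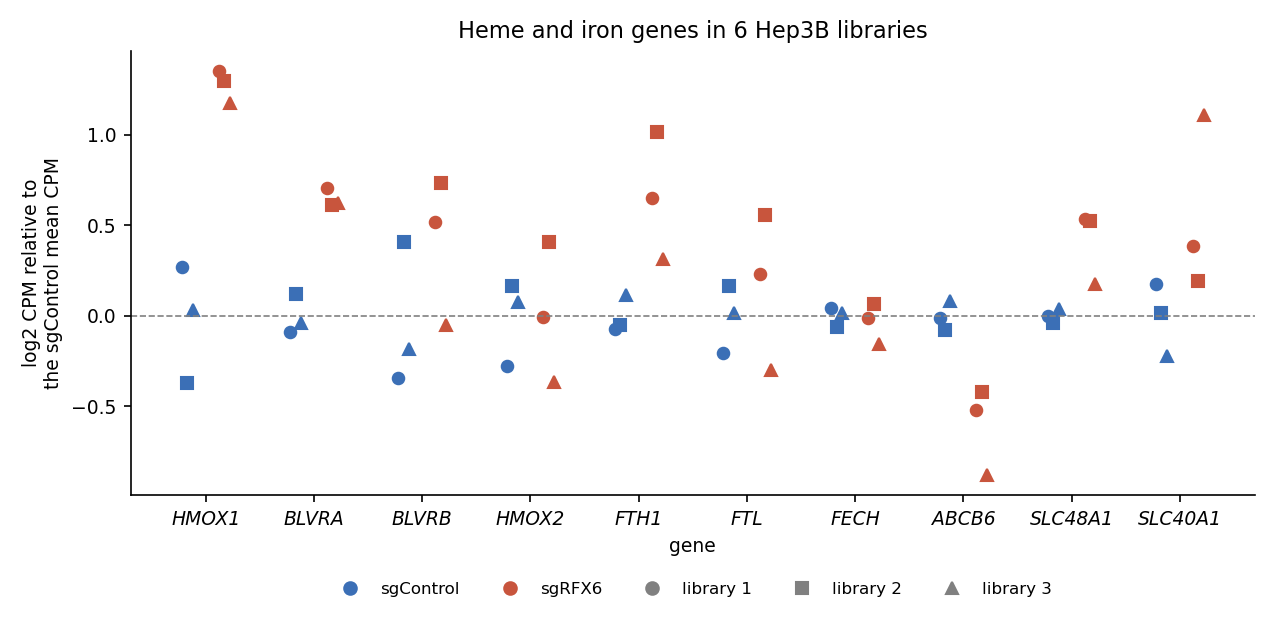
Log2 CPM of HMOX1 and 9 heme and iron genes in each of the 6 libraries, relative to the mean CPM of sgControl for that gene; points are libraries and their shape gives the library number. HMOX1, BLVRA, FTH1, SLC48A1 and SLC40A1 have all sgRFX6 points above the sgControl points, ABCB6 has them below, and the other genes overlap.

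Among the 14 genes for partners and regulators of NRF2, all tested, none was called by edgeR, with 3 at an unadjusted p under 0.05, beside 15.6% of all tested genes. With limma-voom and quality weights 5 were called higher and 1 lower, beside 18.1% and 13% of all tested genes. MAFK, a small Maf partner of NRF2, was at 68.4, 41.8 and 49.9 CPM in sgControl and at 110, 96.5 and 71.1 CPM in sgRFX6 (log2 fold change 0.80, SE 0.24, adjusted p = 0.132). GSK3B, a kinase that marks NRF2 for degradation apart from KEAP1, differed by 0.61 on the log2 scale (adjusted p = 0.174), beside 0.57 for the 50 tested genes around it. BACH1, the repressor that competes with NRF2 at HMOX1, was at 29.9, 16.3 and 18.0 CPM in sgControl and at 18.1, 16.2 and 47.6 CPM in sgRFX6, again with its top value in sgRFX6 library 3 (log2 fold change 0.35, adjusted p = 0.796). BACH1 was named after its values were seen.

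The enzymes that remove quinones and carbonyls were the list with more than 1 call. Of 19 tested genes, 3 were called lower and 0 higher by edgeR, where 1.81% of all tested genes were called lower, and limma-voom with quality weights called 6 lower and 2 higher, beside 13% and 18.1%. The median log2 fold change was -0.20. AKR1C3, a ketosteroid and prostaglandin reductase, fell from 605, 932 and 640 CPM to 291, 263 and 251 CPM (log2 fold change -1.44, SE 0.21, adjusted p = 0.00783), and was called in all 16 alternatives. AKR1C2 fell from 1322, 1494 and 1311 CPM to 791, 744 and 724 CPM (-0.87, SE 0.17, adjusted p = 0.0239). GSTA4, a glutathione transferase for lipid aldehydes, fell from 25.4, 41.0 and 25.2 CPM to 14.3, 12.2 and 15.1 CPM (-1.14, SE 0.26, adjusted p = 0.0473).
AKR1C2 and AKR1C3 are near copies of one another and of AKR1C1, their neighbour on chromosome 10 and on the same list. How the counting divided shared reads among these genes is unknown, so each level is uncertain. AKR1C1 was named after its values were seen. It was at 2719, 3558 and 2771 CPM in sgControl and at 2213, 2005 and 1891 CPM in sgRFX6. It was not called (log2 fold change -0.57, adjusted p = 0.184). AKR1C2 was called in 8 of 16 alternatives and GSTA4 in 7. The call of AKR1C2 was lost when any library except sgRFX6 library 3 was left out (adjusted p from 0.0559 to 0.107), as was that of GSTA4 (0.0753 to 0.164). AKR1C2 was also not called with the GC correction (adjusted p = 0.0568), with it and the replicate block together (0.0566), or relative to the 50 tested genes around it (0.0646).

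Of the other NRF2 signature genes, 1 of 13 was called, on the higher side, beside 1.92% of all tested genes. ABCC1, an exporter of glutathione conjugates, rose from 169, 151 and 186 CPM to 371, 380 and 289 CPM (log2 fold change 1.04, SE 0.18, adjusted p = 0.0146). It lies on chromosome 16 among tested genes with a median of 0.35, relative to which the difference was 0.69 (adjusted p = 0.0917), and it was called in 11 of 16 alternatives. Leaving out sgControl library 1 or 2 or sgRFX6 library 1 or 2 also ended the call (adjusted p from 0.0518 to 0.0791). TRIM16, a ubiquitin ligase gene on the signature list, was at 292, 336 and 260 CPM in sgControl and at 194, 185 and 151 CPM in sgRFX6 (-0.75, adjusted p = 0.0596), and its reads could be shared with its near copy TRIM16L.
In the thioredoxin and peroxiredoxin list 1 of 17 tested genes was called, on the lower side, beside 1.81% of all tested genes. It was MSRB3, a methionine sulfoxide reductase of the endoplasmic reticulum and mitochondria. MSRB3 fell from 20.5, 19.0 and 15.9 CPM to 3.68, 1.63 and 3.50 CPM (log2 fold change -2.64, SE 0.34, adjusted p = 0.0040), and was called in 16 of 16 alternatives. For its relative MSRB1 the difference was 0.60 on the log2 scale (adjusted p = 0.214).

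No call was made by edgeR among 14 tested genes of glutathione synthesis and use (0 at an unadjusted p under 0.05), 8 of NADPH supply (1) and 3 of superoxide and peroxide removal (0), and limma-voom with quality weights called 3, 2 and 1, all higher, beside 18.1% of all tested genes. GPX1 and GPX3, glutathione peroxidases, had log2 fold changes of 0.60 and 0.58 (adjusted p = 0.513 and 0.353). TALDO1, an enzyme of the pentose phosphate pathway, was at 550.0, 585 and 563 CPM in sgControl and at 844, 813 and 623 CPM in sgRFX6 (log2 fold change 0.42, adjusted p = 0.293). Catalase, CAT, had 0.46 and the mitochondrial superoxide dismutase SOD2 had 0.34 (adjusted p = 0.379 and 0.690). Over the 8 lists, 97 of 102 genes were tested, and 1 was called higher and 4 lower, beside 1.92% and 1.81% of all tested genes. With the GC trends removed 11 were called higher and 8 lower, beside 6.56% and 5.46% of the genes in that fit. Besides the heme and iron genes named above, these included TRIM16, MSRB1, GSK3B, TALDO1 and GPX3 (adjusted p from 0.0069 to 0.0448). In these lists 46 of the 97 fold changes were positive where 52.7% of all tested genes had a positive one, and the median was -0.01.

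**Figure D4:**
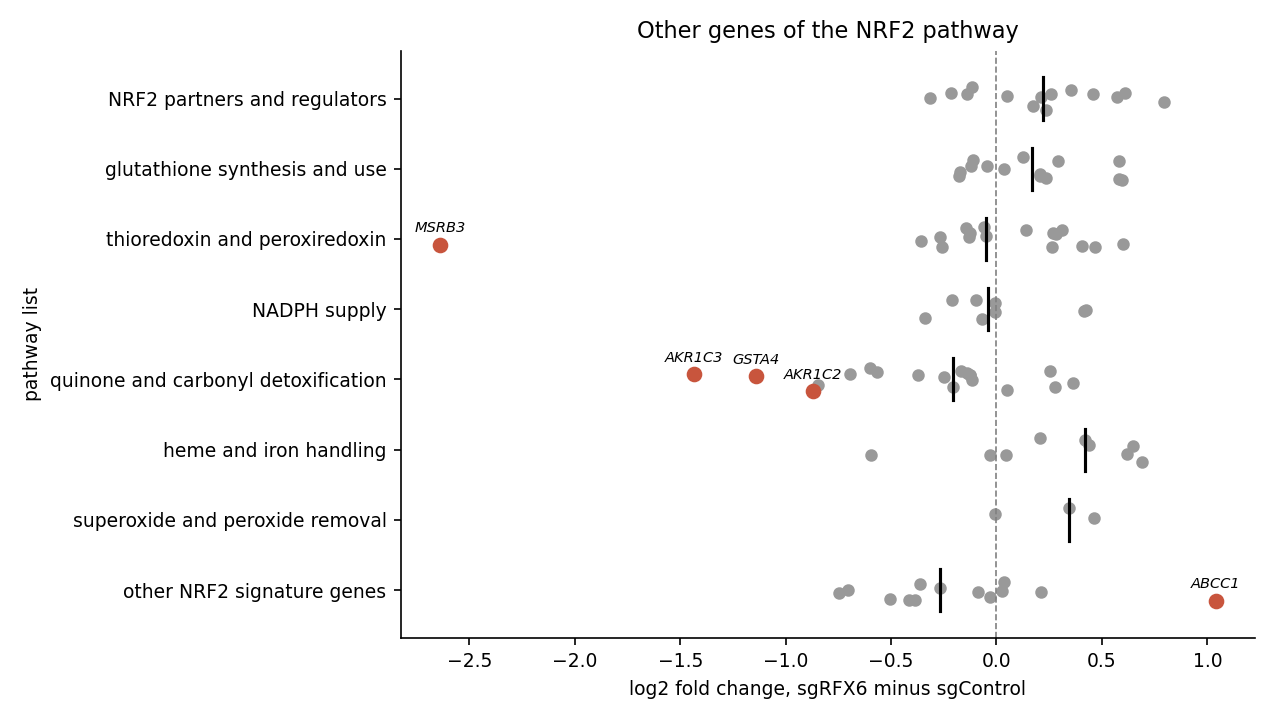
Log2 fold change (sgRFX6 minus sgControl) of the 97 tested genes of 8 lists around NRF2; each point is a gene, red points with names have an adjusted p under 0.05 from edgeR, and black lines are list medians. The 5 called genes are MSRB3, AKR1C3, GSTA4 and AKR1C2 on the lower side and ABCC1 on the higher side.

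By Pearson's r of log2 CPM over the 6 libraries, which share the split between groups and the GC trends, the genes most like HMOX1 were TIMM10B (0.994), NGRN (0.994) and the assembled transcript TCONS_00184430 (0.991). As many as 148 genes had an r above 0.95, so these 3 do not stand apart. TIMM10B was at 22.8 to 27.1 CPM in sgControl and 35.6 to 35.8 CPM in sgRFX6. Among the members, r with HMOX1 ran from -0.838 for NQO1 to 0.652 for GCLC, and NFE2L2 had -0.138. Of the pairs of members, GCLC and GCLM had the highest r (0.914).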

How the data were processed

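The study sequenced RNA of 3 sgControl and 3 sgRFX6 Hep3B libraries. Deposited by the authors were raw read counts per gene or assembled transcript. The submitters' processing notes name the build GRCh38 (hg38), and the aligner, counter, annotation and strand setting are not given in the sources used here. Knockout columns carry the guide name sg3, and control columns name no guide and were taken as sgControl.

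One row without a gene name was left out (at most 9.17e-05% of a library). Counts were fitted with edgeR 4.0.16 in R 4.3.3 (filterByExpr with a minimum count of 10 and total of 15, TMM, quasi-likelihood test over all 6 libraries, no covariates), with Benjamini-Hochberg adjustment over all 12839 genes and a threshold of 0.05. Limma 3.58.1, DESeq2 1.42.0, other scalings and filters, the replicate block, single libraries left out, a GC correction (per library, loess of log2 CPM deviations on GC, prior count 2, span 0.3, used as offsets, for 95.1% of tested genes) and a correction for the median of the nearest 50 genes were the alternatives, and the GC correction with the block was added after seeing the data. In simulated counts edgeR recovered 28.2% of genes with an absolute log2 fold change of 1 and 91.1% of those with 2. With simulated GC trends it recovered 5.45% and 74.4%. The GC correction raised these to 23.6% and 87.8%, with 10.3% of its calls false against 3.95% without the correction. The spread put into the simulation came from the real counts, which already hold GC trends. The trends were thus counted in part again, and the recovery with them may be understated. DESeq2, without simulated GC trends, had 18.3% of its calls false, against 5.83% for edgeR. A gene that did not pass is thus not shown to be unchanged.

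GENCODE release 29 (GRCh38) gave the positions, exon lengths and GC content and matched 15422 row names directly and 256 by another symbol. Promoter windows came from RefSeq. The members and lists were chosen with earlier results of these data known. Named are RFX6, the members, each list's called genes and its 2 genes of largest absolute fold change, and the 3 genes most like the member of largest change. One gene that this rule names is not reported here.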

Additional observations from a re-analysis of the deposited data

How the results depend on the processing

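HMOX1 kept its direction and its call in all 16 alternatives. The number of members called was 1 in every alternative except limma-voom with quality weights (3: HMOX1, NFE2L2 and KEAP1). That tool called 31.1% of all tested genes. All genes called numbered 480 (3.74% of tested genes). They numbered 908 of 16720 with DESeq2, 3998 (31.1%) with limma-voom with quality weights and 1467 (12%) with the GC correction. Genes of the 8 lists called numbered 5 of 97, against 8, 36 and 19 in these alternatives. The lists had 2 with the regional correction (371 of all 12206 genes). They had 9 with the GC correction and the replicate block together (701 of all 12206 genes). With 1 library left out, the counts lay between 212 and 718, and between 2 and 12 for the lists; the cause of these shifts was not tested. Members near 0 changed sign without being called: over the libraries left out NFE2L2 ran from -0.68 to 0.18, GCLM from -0.22 to 0.36 and TXN from -0.0345 to 0.26. NFE2L2 was at 0.18 without sgControl library 1 and at 0.15 and 0.16 without sgRFX6 libraries 1 and 2; GCLM was at -0.33 with limma-voom, -0.19 without sgControl library 2 and -0.22 without sgRFX6 library 3; TXN was at -0.0345 without sgRFX6 library 3; TXNRD1 was at -0.0234 with the regional correction. RFX6 was called with limma-voom (-0.96, adjusted p = 0.00274) and with the GC correction (-0.85, adjusted p = 0.0460 from edgeR).

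The replicate numbers did not pair the libraries: deviations from the group means correlated across genes at -0.406, 0.174 and -0.0867 for numbers 1, 2 and 3. With the replicate block 648 genes and 1 member, HMOX1, were called. The lowest count of a member in a library was 405, and the part of depth in the members that were not called was not tested.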

Other observations

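TXNIP and SLC7A11, named after their values were seen, varied widely inside a group. TXNIP, the inhibitor of thioredoxin, was at 3.23, 47.1 and 3.28 CPM in the sgControl libraries and at 35.0, 10.4 and 21.2 CPM in the sgRFX6 libraries (log2 fold change 0.31, SE 0.95, adjusted p = 0.934 from edgeR). SLC7A11, the cystine importer that feeds glutathione synthesis, was at 295, 86.9 and 163 CPM in sgControl and at 122, 94.0 and 342 CPM in sgRFX6 (0.04, SE 0.54, adjusted p = 0.986 from edgeR). Its transcript has a low GC content, 35.4%. With the GC trend removed SLC7A11 was at 232, 115 and 172 CPM in sgControl and at 150, 131 and 188 CPM in sgRFX6. The spread was then smaller (log2 fold change -0.15, SE 0.25, adjusted p = 0.755 from edgeR). In sgControl, library 2 was the highest of the group for TXNIP and the lowest for SLC7A11, GCLC, GCLM, NFE2L2 and HMOX1.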
